A study of Mus musculus with 5 samples.

Results

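The cytosolic ribosomal protein genes were examined in single-cell RNA sequencing of the mouse temporomandibular joint (TMJ) disc, the fibrocartilage pad between the jaw condyle and the skull. Members were chosen by symbol: every gene whose symbol starts with Rpl or Rps and a digit, together with Rplp0, Rplp1, Rplp2 and Rpsa, leaving out symbols with -ps, which mark pseudogenes, and symbols with k, which mark kinases. This gave 87 of the 27998 genes in the files. Of these, 43 code for proteins of the large subunit, 31 for proteins of the small subunit and 3 for the stalk (Rplp0, Rplp1, Rplp2), 9 are second copies of a subunit gene, and Rps19bp1, whose product binds a subunit protein, is caught by its name alone.

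Each of the 5 libraries was from C57BL/6 wild-type (WT) mice. Normal discs came from newborn pups at 3 d, from juveniles at 3 w, from adults at 16 w and from aged mice at 78 w. Injured discs came from mice labelled as a TMJ disc injury model, and their age of 7 weeks follows the study's methods. There the disc was pricked with a needle at the anterior band at 5 weeks of age, 2 weeks before collection. Another part of the methods gives a shorter interval for mice taken for histology, so the age and the interval are uncertain for this library. The 3 d suspension pooled male and female pups, the older normal mice were males, and the sex of the injured mice is not given in the sources used here. The labels name the same 10x Genomics 3′ v2 reagent kit for every library, but the first barcodes of the 5 files share their first 9 bases, which are not those that open the barcode list of that kit, so the kit version is uncertain. The labels give the injured mice as WT, while the study's methods describe this injury in Myh11-CreER; Tm fl/- mice. Those mice were injected with tamoxifen, and whether the mice of this library were is not given. Each condition is 1 library, and no uninjured disc of the injured mice's age is analysed here. Differences between stages or after injury therefore have no replicate check, and they are given as ratios with 95% intervals that cover counting error only.

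Ribosomal proteins and ribosomal RNAs form the small subunit, which reads the mRNA, and the large subunit, which joins amino acids, while the acidic stalk proteins recruit the elongation factors. Most of these mRNAs begin with a run of pyrimidines, the terminal oligopyrimidine (TOP) tract, through which the mTOR pathway and its effector LARP1 set their translation and stability. Fast-growing cells devote a large part of their mRNA to these genes, and fibroblasts (FBs), the main cells of the disc, rely on them while they lay down matrix.

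The starts of 10 members that carry the results below are shown because a pyrimidine run at the start is the sequence feature for which ribosomal protein mRNAs are known, and these members differ in it. Each line gives the 15 bases before and the 15 bases after the RefSeq start in GRCm38.p6, on the sense strand, 5′ to 3′, with the longest run of C and T that reaches within 5 bases of the start in capitals.
Rps6 (chr4:86857353-86857382, minus strand): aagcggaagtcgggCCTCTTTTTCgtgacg
Rplp2 (chr7:141447636-141447665, plus strand): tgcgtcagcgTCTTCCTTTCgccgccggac
Rpl31 (chr1:39367836-39367865, plus strand): cttcctcctcgCCTCCCCgtgacccggaag
Rps15 (chr10:80292416-80292445, plus strand): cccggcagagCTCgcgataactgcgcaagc
Rpl5 (chr5:107900513-107900542, plus strand): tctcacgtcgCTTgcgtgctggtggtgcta
Rpl41 (chr10:128549154-128549183, minus strand): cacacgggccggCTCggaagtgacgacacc
Rps27 (chr3:90213634-90213663, minus strand): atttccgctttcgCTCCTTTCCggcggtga
Rps27l (chr9:66946071-66946100, plus strand): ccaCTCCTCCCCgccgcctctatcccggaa
Rpl22 (chr4:152325711-152325740, plus strand): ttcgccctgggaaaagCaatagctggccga
Rpl22l1 (chr3:28805493-28805522, plus strand): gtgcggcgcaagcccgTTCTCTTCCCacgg

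Of the 87 members, 66 matched a start in the RefSeq table. A run of at least 5 pyrimidines reached within 5 bases of the start in 53.0% of these members, against 32.9% of the other 26959 promoters in the table. A run of at least 8 did so in 31.8% against 9.57%. Such a run may end before the start, as that of Rps27l does. The annotated start may lie some bases from the start used in these cells, so a short run says only that no longer run lies this near the annotated base. Rpl22 and its second copy Rpl22l1 differ at this position, with runs of 1 and 10 bases.

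Total UMIs (molecules counted once by their barcode) per library ranged from 31585993 in the injured library to 125427849 at 3 w, and 8467 to 14959 cells per library were kept. Median UMIs per cell were 3299 in the injured library and 7721 to 12496 in the normal libraries. Between 19 and 39 barcodes were shared by any pair of libraries. Cells were clustered without the members, and clusters were named from marker genes. Clusters 1, 2, 3 and 10 were stromal (FBs), with 7 to 10 of 10 stromal markers, and endothelial cell-like (EC-like), macrophage-like (MPh-like), mural cell-like (MC-like) and synovial lining fibroblast-like clusters each stood apart. Cluster 4, led by Ibsp, Col2a1 and Chad, and cluster 6, with few UMIs and muscle genes among its leading genes, were left unnamed. Different clusters held most of the stroma at different ages: at 3 d clusters 1 and 3 (6005 and 3626 of 10765 cells), and later clusters 1 and 2 (2629 and 2874 of 6223 cells at 3 w, 1745 and 4018 of 6680 at 78 w).

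Ribosomal protein mRNA made up the largest share of stromal UMIs at 3 d and the smallest at 3 w. The summed share of the 87 genes was 29.4% of stromal UMIs at 3 d, 15.04% at 3 w, 19.5% at 16 w, 20.4% at 78 w and 21.4% in the injured library. The 3 d library stood above the others cell by cell as well: its lower quartile over stromal cells was 24.96%, while the upper quartiles of the other libraries were 17.5% at 3 w, 23.0% at 16 w, 23.9% at 78 w and 24.2% after injury. From 3 d to 3 w the summed level, in counts scaled to the total UMIs of the cells (CPM), changed by a factor of 0.512 (95% interval 0.51182 to 0.5125). From 3 w to 16 w the ratio was 1.30 (1.2981 to 1.3001), from 16 w to 78 w it was 1.04 (1.0434 to 1.045), and over the whole span from 3 d to 78 w it was 0.695 (0.69429 to 0.69518).

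**Figure D1:**
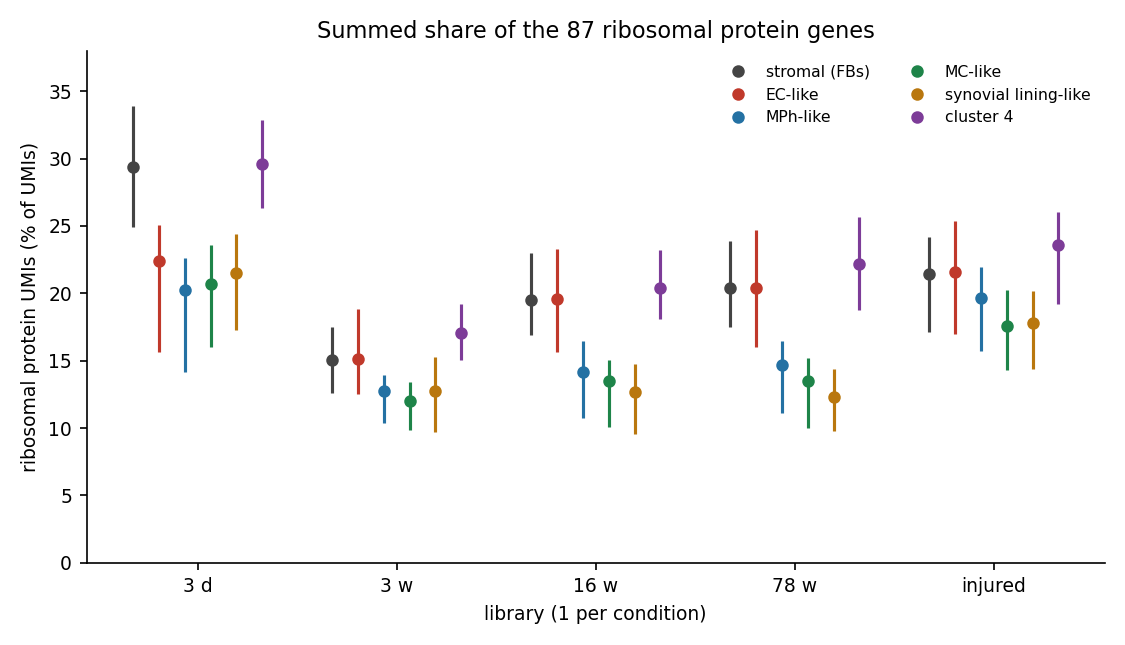
Summed share of the 87 ribosomal protein genes in percent of UMIs (y axis) in each library (x axis) for 6 groups of cells; points are the share of the summed UMIs and lines span the lower to the upper quartile over single cells. The stromal share was 29.4% at 3 d and 15.04% at 3 w, and in all 5 libraries the MPh-like and MC-like points lie below the stromal point.

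Other measures moved with the libraries. The median mitochondrial share of stromal cells was 4.52% at 3 d and 1.92% to 3.14% later, the nuclear RNA Malat1 took 1.71% of stromal UMIs at 3 d, 3.77% at 3 w, 4.82% at 16 w, 3.82% at 78 w and 6.43% after injury, and the summed level of 9 immediate early and heat shock genes, which dissociation can induce, was 4939, 10771, 16060, 9818 and 7465 CPM in the same order. Their part in the ribosomal protein share was not tested. The ratio from 3 d to 3 w was 0.505 over nuclear genes only and 0.586 when mitochondrial genes and the 50 most abundant other genes were left out of the total.

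The lower level at 3 w ran through nearly all members. Of the 85 members with at least 100 UMIs in the library with the higher level, 84 were lower at 3 w than at 3 d and 72 were at least 1.5-fold lower, beside 28.8% of all 12843 genes tested; 0 were at least 1.5-fold higher, beside 27.9%. The median member ratio was 0.540, where the median of all genes was 1.00. The exception was Rpl7l1, a relative of Rpl7 that acts in assembly of the large subunit, with 52.7 CPM at 3 d, 74.3 at 3 w, 46.2 at 16 w, 45.9 at 78 w and 34.0 after injury, and a 3 w to 3 d ratio of 1.41 (1.3596 to 1.4641).

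UMIs count 3′ ends and are not divided by transcript length, so levels are compared within a gene. Among the members with the highest mean CPM, Rplp1 of the stalk was at 7651 CPM at 3 d, 2771 at 3 w, 4618 at 16 w, 4707 at 78 w and 2682 after injury. The 3 d library was the highest, and the 3 w and injured libraries were the lowest. Rpl13 and Rpl23 of the large subunit and Rps3a1 of the small subunit, which were also among the most abundant, ranged from 3232 to 3735 CPM at 3 w and from 5207 to 6284 CPM at 3 d.

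The members with the lowest 3 w to 3 d ratio were Rpl23a, Rpl31, Rps15 and Rplp2. Rpl23a, a large subunit protein near the exit of the nascent chain tunnel, was at 2969 CPM at 3 d, 499.7 at 3 w, 1652 at 16 w, 992 at 78 w and 1017 after injury, a ratio of 0.168 (0.16656 to 0.17004) from 3 d to 3 w. Rpl31, which also lies near the tunnel exit, was at 1833, 462, 935, 746 and 787 CPM. For both genes the 3 w library was the lowest of the 5. The same held for the stalk protein gene Rplp2, at 3503, 1083, 2558, 2292 and 2497 CPM.

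At the other end, beside Rpl7l1, the highest ratios were those of Rps19bp1 (0.892), Rps27l (0.870), Rpl6l (0.861) and Rps27rt (0.848). Rps19bp1 is no ribosomal subunit, and the other genes are second copies. None of the 77 genes that code for the standard subunit proteins was among these 5 members.

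Between 3 w and 16 w the ribosomal protein genes were higher again, and unevenly so. Of 84 members, 22 were at least 1.5-fold higher at 16 w, beside 11.4% of 11874 genes, and 1, Rpl7l1, was at least 1.5-fold lower, beside 20.4% of genes. The median member ratio was 1.25, where that of all genes was 0.913. Rpl23a had a ratio of 3.31 (3.2678 to 3.3434) and Rplp2 of 2.36. Both had been named for a low 3 w to 3 d ratio. That ratio rests on the same 3 w library, so these values cannot show a return to an earlier level. Rplp0, the stalk protein that holds Rplp1 and Rplp2, was at 3347 CPM at 3 w and 2443 CPM at 16 w, a ratio of 0.730 (0.72544 to 0.73452).

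Adult and aged stroma had close levels. From 16 w to 78 w the median member ratio was 1.04 and that of all genes was 0.970. Only Rpl23a, at 0.601 (0.595 to 0.60667), was at least 1.5-fold lower, beside 4.26% of 11532 genes. No member was at least 1.5-fold higher, beside 560 of these genes. Rpl5, which carries the 5S ribosomal RNA into the large subunit, was at 1482 CPM at 16 w and 1001 CPM at 78 w, a ratio of 0.675, and Rps15 of the small subunit had a ratio of 0.672. Rplp0 was the member with the highest ratio, 1.27 (1.2641 to 1.2808).

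Over the whole span from 3 d to 78 w, 36 of 85 members were at least 1.5-fold lower, beside 32.8% of 12742 genes, and the median member ratio was 0.692 against 0.892 for all genes. Rpl23a (0.334), Rpl5 (0.359), Rps15 (0.376), Rpl13a (0.379) and Rpl31 (0.407) had the lowest ratios. Rps21 (1.11), Rpl30 (1.10), Rps29 (1.08), Rps27 (1.04) and Rpl10 (1.01) had the highest. Rps29 illustrates the last group, with 2816 CPM at 3 d, 1663 at 3 w, 3147 at 16 w, 3045 at 78 w and 5579 after injury. It was lowest at 3 w and highest in the injured library.

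**Figure D2:**
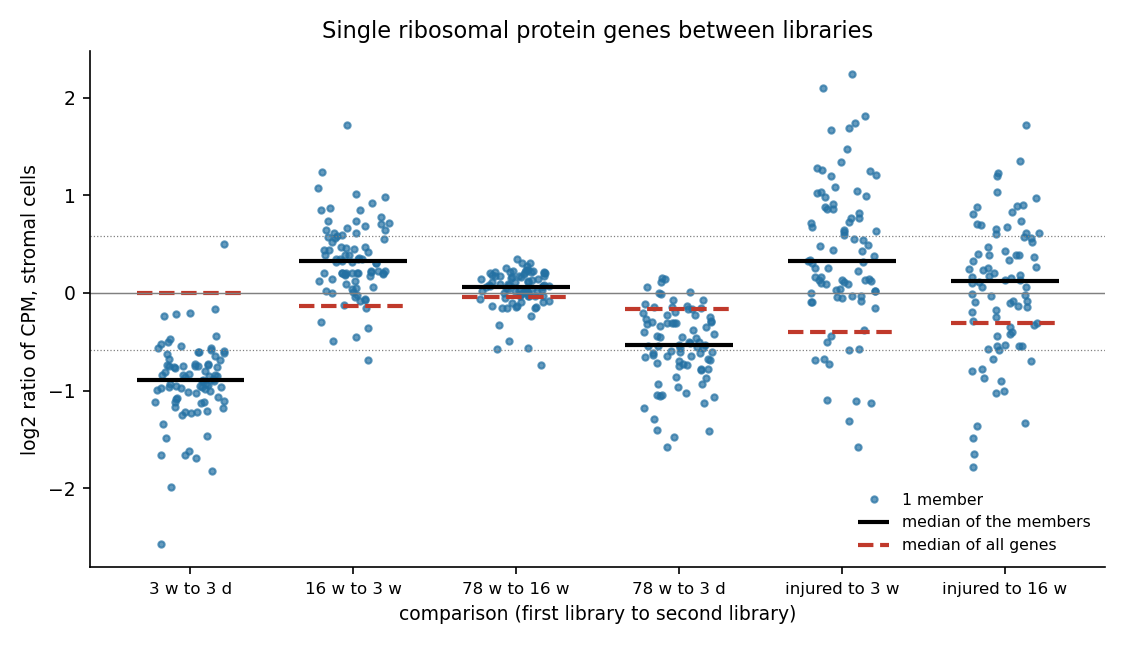
Log2 ratio of stromal CPM (y axis) for each member with at least 100 UMIs in 6 comparisons of libraries (x axis); black lines mark the median of the members, red dashed lines the median of all genes, and dotted lines a 1.5-fold difference. The members sit together below 0 for 3 w to 3 d (median ratio 0.540) and spread widest in the comparisons with the injured library, from 0.291 to 3.29 for injured to 16 w.

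The injured library had a summed level 1.43 times that of 3 w (1.4243 to 1.4272) and 1.10 times that of 16 w (1.0964 to 1.0986), the normal libraries on either side of it in age. Single members moved far more than the sum and in both directions. Against 16 w, 19 of 84 members were at least 1.5-fold higher, beside 12.5% of 10997 genes, and 13 were at least 1.5-fold lower, beside 32.7% of genes. Against 3 w, 33 of 84 were at least 1.5-fold higher, beside 9.86% of 11236 genes, and 9 were at least 1.5-fold lower, beside 38.9%. Stromal cells held 23840429 UMIs in the injured library, 63960176 at 16 w and 81606513 at 3 w. To reach the minimum UMIs, a gene needed more CPM when higher after injury than when lower. Depth therefore enters these shares of all genes, and how far was not tested. Median-of-ratios size factors raised all injured to 16 w ratios by 0.198 on the log2 scale and all injured to 3 w ratios by 0.311, which gave 27 higher and 11 lower members against 16 w and 44 higher and 5 lower against 3 w. The same shift applied to every gene, and the shares of all genes were not counted under these factors. These counts therefore cannot be read as a result about the members. The injured library is also the shallowest per cell, with a median of 3495 UMIs per stromal cell against 8967 at 16 w, and with each cell thinned to 1000 UMIs the ratios of the sum were 1.38 to 3 w and 1.05 to 16 w.

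Rpl41, the shortest protein of the ribosome, had the highest injured to 16 w ratio. Its level was 5355 CPM at 3 d, 1697 at 3 w, 2437 at 16 w, 2592 at 78 w and 8020.2 after injury, a ratio of 3.29 (3.2692 to 3.3133). Rpl39, a short protein that lines the exit tunnel, was at 4514, 1784, 2736, 2977 and 6264 CPM, a ratio of 2.29. For both genes the injured library lay above all 4 normal libraries, including that of 3 d. Rpl27 (2.55), Rps28 (2.35) and the second copy Rps27l (2.05) were the other members of this group.

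Rpl5 had the lowest ratio, with 2786 CPM at 3 d, 1286 at 3 w, 1482 at 16 w, 1001 at 78 w and 432 after injury, a ratio to 16 w of 0.291 (0.28521 to 0.29709). Rps6, the small subunit protein that S6 kinases phosphorylate, was at 2369 CPM at 3 d, 1541 at 3 w, 1958 at 16 w, 1916 at 78 w and 622 after injury, a ratio of 0.318 (0.31233 to 0.32317). The injured library was the lowest of the 5 for both. Rpl12 (0.357), at the base of the stalk, Rps15 (0.388) and Rpl13a (0.397) followed. Rpl12, Rps15 and Rpl13a were at 1367, 916 and 1744 CPM at 3 w and at 640, 705 and 807 CPM after injury. At 16 w they were at 1794.5, 1816 and 2035 CPM, so each lay nearer its 3 w level, Rps15 most closely.

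The higher ratios after injury lay mostly with the members of short coding sequence. This relation was looked for after the member values had been seen. Across 83 members with a length in the GENCODE basic annotation of GRCm38, Spearman's rho between the injured to 16 w log2 ratio and the coding length was -0.54, and across 10623 other genes it was -0.41; genes of 1 pair of libraries are not independent. The 28 members of 138 to 399 coding bases had a median ratio of 1.51, with 14 at least 1.5-fold higher and 1 lower, the 28 of 405 to 576 bases had a median of 0.928, with 3 higher and 6 lower, and the 27 of 582 to 1257 bases had a median of 0.887, with 2 higher and 6 lower. The shortest members stood apart, and the medians of the other groups were close to each other. Lengths are those of each gene's protein-coding transcript with the longest coding part, which may not be its main form. On this measure Rpl41 has 138 coding bases and Rpl39 153, while Rpl5 has 891 and Rps6 747. Rps15, with 435 bases, and Rpl12, with 495, were low without being long. Among the normal libraries the members' rho was 0.14 for 3 w to 3 d, -0.50 for 16 w to 3 w and 0.32 for 78 w to 16 w. Across other genes the rho was 0.11, 0.26 and -0.31 in the same order. For 16 w to 3 w the 28 members of 138 to 399 bases had a median ratio of 1.53, with 16 at least 1.5-fold higher. Among the members the relation was thus not limited to the injured library, while for 16 w to 3 w the other genes had the opposite sign. With the total transcript length in place of the coding length the injured to 16 w value was -0.29. The part of read length, fragment size or RNA quality in this relation was not tested.

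**Figure D3:**
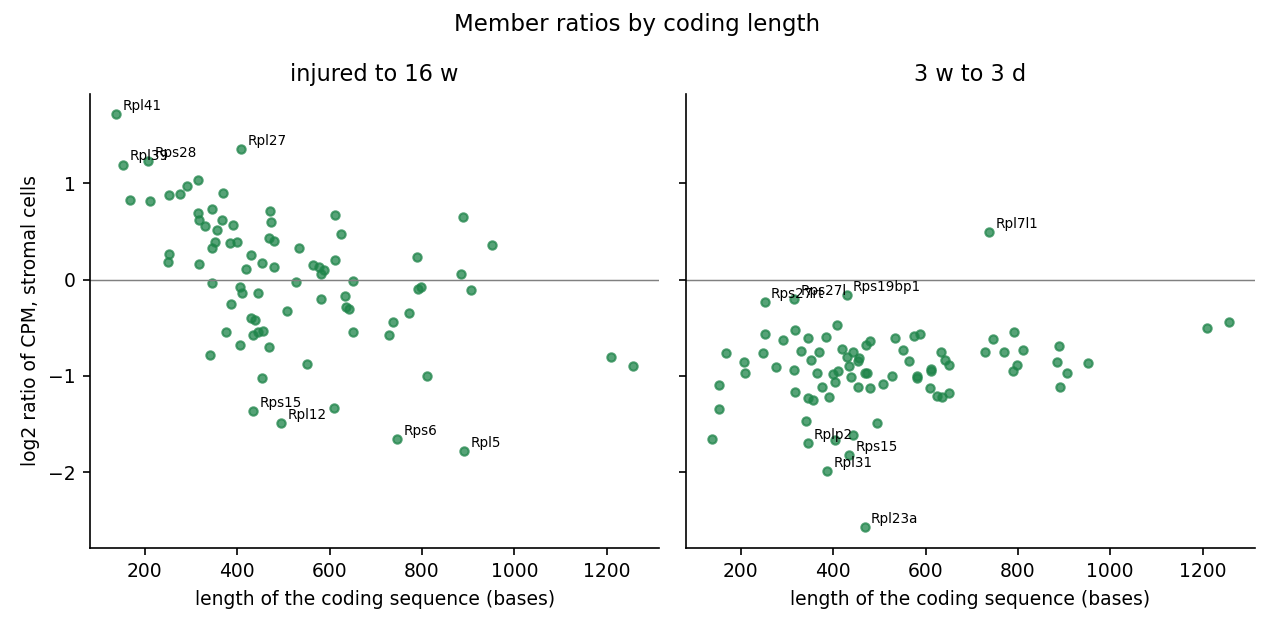
Log2 ratio of stromal CPM (y axis) against the length of the coding sequence in bases (x axis), 1 point per member, for injured to 16 w (left) and 3 w to 3 d (right); the 4 highest and the 4 lowest members are named. In the left panel short members such as Rpl41 (ratio 3.29) lie high and longer ones such as Rpl5 (0.291) and Rps6 (0.318) lie low, and in the right panel nearly all points lie below 0 at every length.

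The make-up of the ribosomal protein pool differed between libraries in the subunits and in the stalk. Large subunit genes took 48.4% of the stromal pool at 3 d, 51.0% at 3 w, 49.9% at 16 w, 49.3% at 78 w and 52.7% after injury. Small subunit genes took 45.7%, 44.2%, 45.2%, 45.8% and 43.4% in the same order. The 3 stalk genes took 5.87% at 3 d, 4.79% at 3 w, 4.92% at 16 w, 4.95% at 78 w and 3.88% after injury. The stalk share was thus highest at 3 d and lowest after injury, and within the stalk the injured to 16 w ratio was 1.29 for Rplp0, 0.581 for Rplp1 and 0.976 for Rplp2. Against 3 w the pattern was another. Rplp0, Rplp1 and Rplp2 were at 3347, 2771 and 1083 CPM at 3 w and at 3145, 2682 and 2497 CPM after injury. The order within the stalk thus depended on the normal library used. Between any pair of normal libraries the levels of the 87 members, as log2(CPM + 1), had a Pearson r of 0.988 to 0.997, and between the injured and the normal libraries 0.950 to 0.968; these are descriptions over genes, not tests.

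Members with a pyrimidine run of at least 5 bases that reached within 5 bases of the RefSeq start had somewhat lower medians than those with a shorter run. The ranges overlapped, and this split, too, was made after the values were known. From 3 d to 3 w the median ratio was 0.525 for the 35 members with the run and 0.557 for the 29 without it. From 3 d to 78 w the medians were 0.657 and 0.788, and for injured to 16 w they were 1.06 (34 members) and 1.10 (29 members). Rps6, with a run of 10 bases, and Rpl5, with a run of 3, were both among the lowest after injury.

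Second copies made up 0.80% to 1.16% of the stromal pool. Rpl22l1, which can take the place of Rpl22, was at 1613 CPM at 3 d, 825 at 3 w, 838 at 16 w, 981 at 78 w and 1285 after injury, and Rpl22 was at 1403, 929, 1289.6, 1337 and 1683 CPM. Both were lowest at 3 w, and from 3 d to 16 w Rpl22l1 had moved further from its 3 d level than Rpl22 had. Rps27l, a target of p53, was at 291, 253, 180, 223 and 369 CPM, and its partner Rps27 at 2294, 1550.2, 2651, 2391 and 3196 CPM, so Rps27l was lowest at 16 w and Rps27 at 3 w.

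Rpl36al was at 627 CPM at 3 d, 437 at 3 w, 439 at 16 w, 511 at 78 w and 674 after injury, and Rps27rt, a retrocopy of Rps27, was at 60.6, 51.4, 59.2, 54.1 and 109 CPM. For both the injured library was the highest. Rpl6l (4.00 to 5.45 CPM) and Rpl39l (0.629 to 1.93 CPM) were the lowest of the copies with a ratio. Rpl3l, a form of Rpl3 known from muscle, had 0, 1, 1, 2 and 4 stromal UMIs, and Rpl10l, a form of Rpl10 known from testis, had 2 UMIs at 78 w and 0 elsewhere, so no ratio is given for them. Levels of copies close in sequence to their partner, such as Rps27rt and Rpl36al, are uncertain, because the counting may divide their reads.

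**Figure D4:**
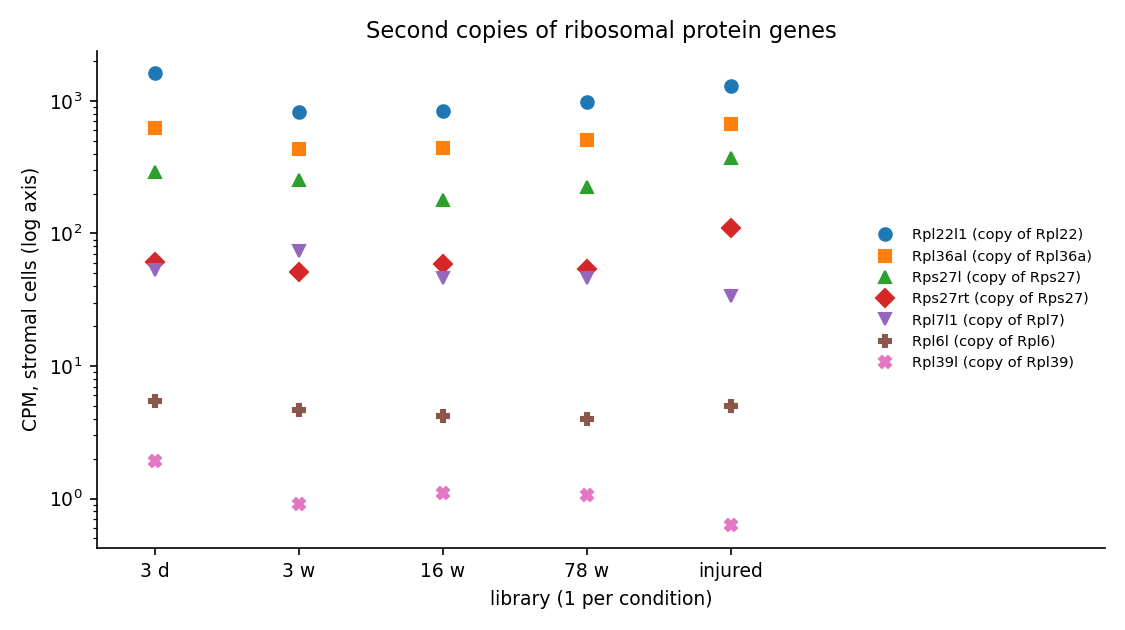
Stromal CPM on a log axis (y axis) of the 7 second copies with at least 10 UMIs in every library (x axis), with the partner gene in the key. Rpl22l1 was highest at 3 d (1613 CPM), and Rps27l, Rpl36al and Rps27rt were highest in the injured library (369, 674 and 109 CPM).

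Within the stroma clusters 1, 2 and 3 each had a lower share at 3 w than at 3 d. At 3 d the share was 32.1% in cluster 1 (Coch, Angptl7, Tnmd), 27.5% in cluster 2, 27.2% in cluster 3 (Pi16, Clec3b) and 24.9% in the proliferating cluster 10. At 3 w clusters 1, 2 and 3 had 14.7%, 15.3% and 15.3%. The 3 w to 3 d ratio was 0.459 in cluster 1, 0.557 in cluster 2, which had 260 cells at 3 d, and 0.561 in cluster 3. Proliferating cells, those with UMIs of at least 3 of 10 proliferation genes after thinning to 3000 UMIs, were 7.59% of the 3 d stromal cells deep enough to score, and their share was 24.5%, against 30.1% in cells with 0 or 1 of these genes. In the injured library 13 such cells of 3767 had 18.1%, against 21.9%, and at 3 w there were 5 such cells. The proliferating cells were also deeper, with medians of 12676 UMIs against 8446 at 3 d and 8334 against 4296 after injury. The part of depth in their lower share was not tested. Across quartiles of UMIs per cell the 3 d share was 28.3%, 31.2%, 30.2% and 28.4% from the shallowest to the deepest cells, the 16 w share went from 21.4% to 18.4%, and the shallowest quartile of the injured library, at 18.2%, lay below its other quartiles at 21.6% to 22.1%.

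EC-like, MPh-like and MC-like cells were also lower at 3 w than at 3 d. EC-like cells had a share of 22.4% at 3 d, 15.1% at 3 w, 19.6% at 16 w, 20.4% at 78 w and 21.6% after injury. MPh-like cells had 20.3%, 12.7%, 14.1%, 14.7% and 19.7%. MC-like cells had 20.7%, 12.0%, 13.5%, 13.5% and 17.5%. The 3 w library was the lowest in all 3 classes. The 3 w to 3 d ratios were 0.673, 0.629 and 0.581 for EC-like, MPh-like and MC-like cells, and at least 1.5-fold lower were 37 of 83 members in EC-like cells (beside 35.4% of genes tested), 41 of 83 in MPh-like cells (25.5%) and 58 of 83 in MC-like cells (33.8%).

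The 78 w to 3 d ratio was 0.910 in EC-like, 0.727 in MPh-like and 0.652 in MC-like cells, and the differences between these ratios were not tested. At least 1.5-fold lower were 13 of 83 members in EC-like cells, beside 30.6% of genes, 25 of 83 in MPh-like cells, beside 28.2%, and 44 of 83 in MC-like cells, beside 36.7%. Synovial lining-like cells went from 21.5% at 3 d to 12.7%, 12.6% and 12.3% at 3 w, 16 w and 78 w, without the higher level that stromal cells had at 16 w, and were at 17.8% after injury. Cluster 4 had 29.6%, 17.1%, 20.4%, 22.2% and 23.6% in the 5 libraries, with 60 cells at 3 d. Cluster 6, which was left unnamed and whose median was 744 to 1132 UMIs per cell, had 32.2%, 10.3%, 16.6%, 20.6% and 11.4%. Schwann-like cells, with 10 to 42 cells a library, had 20.1%, 9.48%, 7.05%, 12.1% and 17.6%. Erythroid-like cells, whose mRNA is mostly globin, went the other way from 3 d to 3 w, with 5.63% at 3 d (373 cells) and 6.40% at 3 w (30 cells, with a median mitochondrial share of 17.4%). They had 0.901% at 16 w (2 cells), 4.38% at 78 w (32 cells) and 9.43% in the injured library (75 cells).

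Against 16 w the injured library had a higher summed level in these 3 classes, with ratios of 1.10 in EC-like, 1.39 in MPh-like and 1.30 in MC-like cells, and a lower one in cluster 6, with a ratio of 0.689 (0.67622 to 0.70258). At least 1.5-fold higher were 15 of 82 members in EC-like cells (beside 6.79% of genes) and 35 of 81 in MPh-like cells (21.0%). In MC-like cells they were 22 of 79 (6.57%). At least 1.5-fold lower were 14 (42.0%), 6 (31.3%) and 8 (43.8%) in EC-like, MPh-like and MC-like cells. A gene was tested if it reached the minimum UMIs in the library with the higher level. EC-like and MC-like cells held 883221 and 309635 UMIs in the injured library, against 3883240 and 2143553 at 16 w. More CPM was thus needed there to be tested as higher than as lower. These shares of all genes therefore give no fair level for the members. MPh-like cells held 1237796 and 1246910 UMIs, so this hardly touches their shares. As in the stroma, short members had the higher ratios, with a rho of -0.47, -0.52 and -0.48 with coding length. Across other genes the rho was -0.29, -0.48 and -0.26. Among the members the relation was not limited to the injured library: for the normal libraries, 16 w to 3 w, the members' rho was -0.68, -0.64 and -0.63. Other genes had a rho of -0.13, 0.06 and -0.07 there, so they did not share it to that degree. MPh-like cells had a median of 10015 UMIs at 16 w and 2186.5 in the injured library, where these cells were 5.55% of the library against 1.28% at 16 w.

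Differences between cell classes could be tested, since each library holds all of them. Nearly every member was lower in MC-like than in stromal cells. By edgeR's quasi-likelihood test on UMIs summed per library and class, with the library as a block and Benjamini-Hochberg adjustment over 12719 genes, 80 of the 85 members tested were lower in MC-like cells, beside 17.2% of all genes, and 0 were higher, also at an unadjusted p under 0.05, beside 17.0%. The median log2 fold change of the members was -0.55. Rpsa, a small subunit protein also known as a laminin receptor, had 2031 CPM in MC-like and 3031 CPM in stromal cells (means over 5 libraries), a log2 fold change of -0.70 ± 0.089 (SE; adjusted p = 7.7e-06). Rps27a, made as a fusion with ubiquitin, had -0.73 ± 0.098 (adjusted p = 1.5e-05), and Rps12 had -0.81 ± 0.11 (adjusted p = 1.9e-05). Each was lower in 5 of 5 libraries. DESeq2 called 80 members lower, beside 2098 of 16165 genes, and 1 higher, beside 2577. The latter was Rpl3l, which had 0 to 4 UMIs per library in the stroma. Of the 13 genes of the mitochondrial genome 10 were higher and 0 lower in MC-like cells, with a median log2 fold change of 0.57. MC-like cells also had fewer UMIs, with medians of 2548 to 7714 per cell where stromal medians were 3495 to 12178, and the part of both in these differences was not tested.

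In MPh-like cells 55 members were lower, beside 29.2% of all genes, and 1 was higher, beside 25.8%. Rpl22l1 fell most clearly, from a mean of 1109 CPM in stromal cells to 533 CPM, with a log2 fold change of -1.06 ± 0.127 (adjusted p = 1.7e-06), and it was lower in 5 of 5 libraries. Rps3a1 (-0.68 ± 0.092, adjusted p = 7.0e-06) followed, also lower in 5 of 5. The member higher by edgeR was Rps29, a zinc-binding small subunit protein, with 4307 CPM against 3250.3, a log2 fold change of 0.44 ± 0.099 (adjusted p = 0.0012), higher in 5 of 5. DESeq2 called 49 members lower, beside 3559 of 16165 genes, and 4 higher, Rps29 among them, beside 3991. The edgeR test without the filter called 60 lower, beside 4251 of 22403 genes, and 2 higher (Rps29 and Rpl3l), beside 3391. Without the 16 w library 35 of 85 members were lower, beside 3238 of 12506 genes, and 1 was higher, beside 2880. Without that of 78 w 32 of 85 were lower, beside 2978 of 12523 genes, and 1 was higher, beside 2844.

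Fewer members passed in EC-like cells, where 30 were lower, beside 23.2% of all genes, and 0 were higher by edgeR, also at an unadjusted p under 0.05, beside 19.1%. DESeq2 called 26 lower, beside 3010 of 15810 genes, and 0 higher, beside 2976. The median log2 fold change was -0.22. Rps3a1 had 3147 CPM against 4308 in stromal cells, a log2 fold change of -0.61 ± 0.092 (adjusted p = 2.8e-05), Rpl22l1 had -0.84 ± 0.126 (adjusted p = 3.1e-05) and Rpsa -0.52 ± 0.088 (adjusted p = 0.00010), each lower in 5 of 5 libraries. The count rests on the scaling: without TMM factors 8 of 85 members passed. Of these 7 were lower, beside 2237 of 12719 genes, and 1 was higher, beside 3198. With 1 library left out, all members called were lower. These were 18 of 84 without the 3 d library (beside 2895 of 11862 genes) and 12 of 85 without that of 78 w (2365 of 12523). They were 18 of 85 without the injured library (2611 of 12632) and 20 of 85 without that of 16 w (2618 of 12506). Without the 3 w library they were 43 of 85 (2669 of 12541). Apart from that last setting, the shares without TMM or with 1 library left out lay near or below those of all genes. EC-like cells also had fewer UMIs than stromal cells, with medians of 1924 to 5760 per cell, and the part of depth in these differences was not tested.

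**Figure D5:**
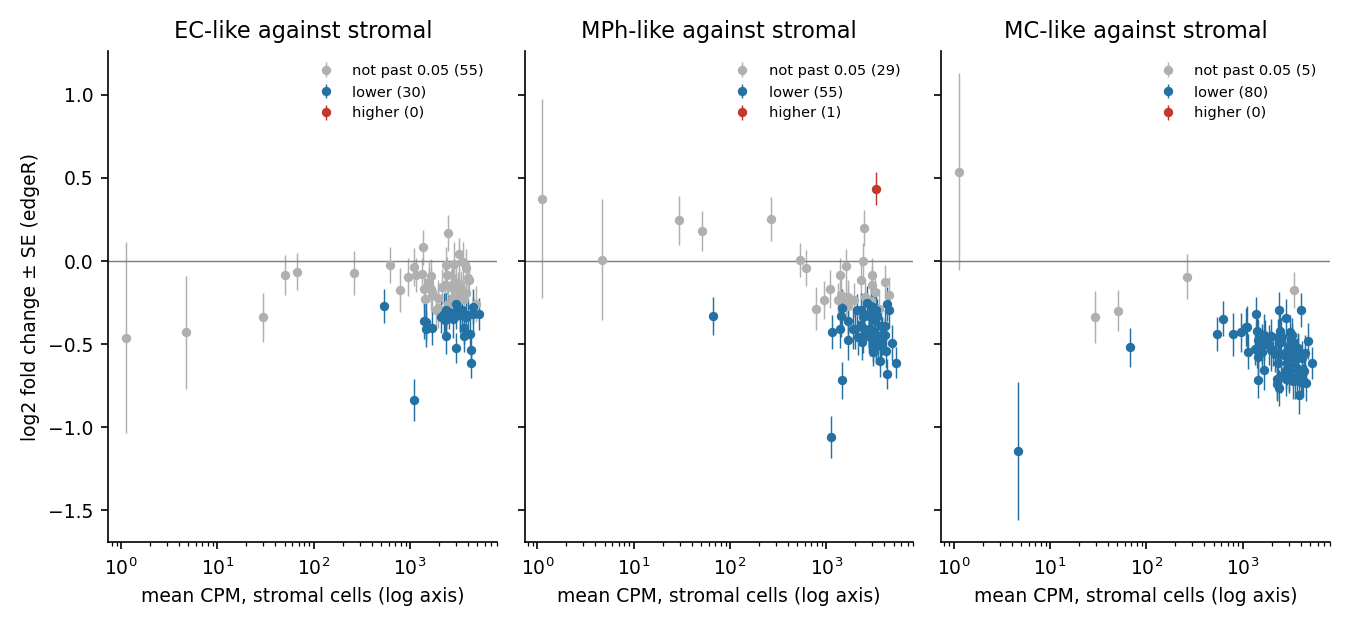
Log2 fold change of each member against stromal cells with its standard error (y axis) by mean stromal CPM on a log axis (x axis), for EC-like, MPh-like and MC-like cells over 5 libraries; colours mark members past an adjusted p of 0.05. The numbers lower were 30, 55 and 80 of 85, and Rps29 is the member marked higher, in MPh-like cells.

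The summed shares were compared with a test that the design limits. Over the 5 libraries the mean log2 ratio of the class share to the stromal share was -0.07 ± 0.18 (SD, n = 5) in EC-like cells (exact two-sided sign-flip permutation p = 1, lower in 1 of 5 libraries). It was -0.37 ± 0.18 in MPh-like cells and -0.45 ± 0.14 in MC-like cells, lower in 5 of 5 libraries each, with an exact permutation p = 0.062, the smallest that 5 libraries can give, and 0.0938 after adjustment over the 3 classes. The libraries differ in age and injury, so their spread holds these differences too.

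Other genes of translation were read beside the members. Fau and Gnb2l1 (Rack1), cytosolic subunit genes that the naming rule misses, had 3 w to 3 d ratios of 0.591 and 0.496 in the stroma. After injury they parted: Fau was at 2581 CPM at 16 w and 4003 after injury, while Gnb2l1 was at 1461 and 469.6. Fau codes for a short ribosomal protein fused to a ubiquitin-like protein, and RACK1 is a longer scaffold protein on the small subunit. Of 76 mitochondrial ribosomal protein genes tested, 27 were at least 1.5-fold lower at 3 w than at 3 d, beside 28.8% of all genes, and 6 were higher, beside 27.9% (median ratio 0.745). At 78 w 51 of the 76 were at least 1.5-fold lower than at 3 d, beside 32.8% of all genes (median ratio 0.588).

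Elongation factor genes had a median 3 w to 3 d ratio of 0.825 over 6 genes. Eef1a1, which brings aminoacyl-tRNA to the ribosome, was at 7413 CPM at 3 d, 5869.5 at 3 w, 5999 at 16 w, 6463 at 78 w and 3629 after injury. The 19 other TOP mRNAs, a list that holds some of these genes too, had a median of 0.792; Tpt1 among them was at 10688, 5613, 7225, 7015 and 2797 CPM. Both genes were highest at 3 d and lowest after injury. From 3 d to 3 w the initiation factors and Pabpc1 (30 genes) had a median ratio of 1.29 and the ribosome biogenesis genes (26 genes) 1.36. The regulators of ribosomal protein mRNA (17 genes tested) had 1.36, where the members had 0.540. The regulators include both activators and inhibitors of the mTOR pathway, with ratios from 0.413 to 3.62, so their median gives no direction for the pathway. Myc, which drives transcription of ribosomal protein genes, was at 48.6 CPM at 3 d, 153 at 3 w, 294 at 16 w, 208 at 78 w and 84.6 after injury, so it was lowest at 3 d. The 10 proliferation genes were lower at 3 w by a median ratio of 0.0285.

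Between cell classes most of the TOP mRNAs outside the members that passed the test were lower than in stromal cells. Of 19, 12 were lower in MC-like cells, beside 17.2% of all genes, 8 were lower and 2 higher in MPh-like cells, beside 29.2% and 25.8%, and 5 were lower in EC-like cells, a share near the 23.2% of all genes. Of the 76 mitochondrial ribosomal protein genes 5 were lower and 3 higher in MC-like cells, beside 17.2% and 17.0% of all genes. In MPh-like cells 6 were lower and 10 higher, beside 29.2% and 25.8%, and in EC-like cells 6 were lower and 1 higher, beside 23.2% and 19.1%. Fau and Gnb2l1 were also lower in MC-like cells.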

How the data were processed

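Gene expression was measured in 5 libraries of TMJ disc cells made with the 10x Genomics 3′ chemistry; the kit version is uncertain. For each library the authors deposited a matrix of raw UMI counts per gene and barcode, not normalized. The submitters' processing notes name Cell Ranger 3.1 and mm10, while the file headers name Cell Ranger 4.0.0. Kept were barcodes above 200 UMIs whose mitochondrial share did not exceed 30%; doublets were not removed.

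Counts were clustered in Seurat 5.3.0 (R 4.3.3, Matrix 1.6.5) as in the study's methods: log-normalization, 2000 variable features, integration over 30 dimensions and a resolution of 0.2, with the members and the other gene lists left out of the features. A cluster took a name when 3 or more markers, each with 10 UMIs or more, reached 2 times the lower quartile of the remaining clusters (5 CPM added to both) and its median UMIs reached 0.333 of the library's; names outside the stroma also needed a mean log2 fold of 3 and at least 1 marker among the 10 leading genes. Synovial lining names needed 3 markers among the leading genes. A cluster that missed the rule of its best type could be called stromal at a mean log2 fold above 1 for the stromal markers. No cluster was called stromal when its leading genes held more markers of another type, which left cluster 4 unnamed. The naming rule was set in 3 versions, the last after values had been seen.

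CPM, shares with Clopper-Pearson intervals and exact intervals of the ratio of 2 counts (scipy 1.17.1, Python 3.11.15) were computed from the deposited counts for genes with at least 100 UMIs in the library with the higher level, and 1.5-fold was taken as a difference. Where the compared libraries differ in summed UMIs, a gene needs less CPM to be tested when it is higher in the deeper one. Shares of all genes then depend on depth. Classes were compared with edgeR 4.0.16 on UMIs summed per library and class (TMM, filterByExpr, library as a block, adjusted p under 0.05), with DESeq2 1.42.0 as an alternative, and summed shares with an exact sign-flip permutation test. On counts simulated with a dispersion of 0.02 for EC-like against stromal cells (12719 genes, 200 changed) edgeR recovered 96% of 4-fold and 64% of 1.5-fold changes. On Poisson counts simulated for stromal cells at 78 w and 3 d (11937 genes) the intervals held the true ratio for 95.1% of the unchanged genes. The intervals assume Poisson counts, so this checks the computation only and says nothing of the spread between libraries.

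Named are the 5 members with the highest mean stromal CPM, the 5 highest and 5 lowest by ratio for 3 w to 3 d, 78 w to 3 d and injured to 16 w, the 3 with the smallest adjusted p in each direction per class contrast, the second copies with their partners, and the stalk genes. The members and lists were chosen with earlier results of these data known. Rpl6l has no coding length in the annotation used. Gas5, a listed TOP RNA, was not used here, and some genes that these rules select are not reported here.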

Additional observations from a re-analysis of the deposited data

Results flagged for a closer look

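In EC-like cells the 3 d library lay far from the others: its log2 ratio of the ribosomal protein share to the stromal share was -0.389, while the other 4 libraries lay between 0.0003 and 0.011, and the gap was 0.974 of the whole range, above Dixon's critical value of 0.71 for 5 samples. Of 13 sets of 5 libraries tested in this way 1 stood out, and chance gives about 1 in 20.

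Synovial lining-like cells moved against stromal cells between the later stages. Their summed ribosomal protein ratio was 0.992 from 3 w to 16 w, where stromal cells had 1.30, and 0.974 from 16 w to 78 w, where stromal cells had 1.04. Each class has 1 library per stage, and the difference between them was not tested.

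The 16 symbols with -ps that the member rule leaves out held 77924 UMIs over all cells, 0.066% to 0.092% of the members' UMIs per library. Whether these reads come from pseudogenes or from the genes they resemble was not tested.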

How the results depend on the processing

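The 4 stromal ratios of the summed level kept their direction under every alternative tried, and most moved by more than counting error; the cause of each move was not tested. In the order 3 w to 3 d, 78 w to 3 d, injured to 3 w and injured to 16 w (0.512, 0.695, 1.43 and 1.10 as reported), they were 0.510, 0.692, 1.43 and 1.10 in cells that held 1000 or more UMIs, no more than 10% of them mitochondrial, 0.505, 0.681, 1.41 and 1.08 over nuclear genes, and 0.586, 0.768, 1.42 and 1.12 without mitochondrial genes and the 50 most abundant other genes. Median-of-ratios size factors gave 0.465, 0.7002, 1.77 and 1.26, equal weight for cells 0.522, 0.709, 1.36 and 1.04, equal weight for stromal clusters 0.522, 0.698, 1.43 and 1.11, clusters without integration 0.537, 0.715, 1.40 and 1.11, and cells thinned to 1000 UMIs 0.522, 0.709, 1.38 and 1.05. A resolution of 0.5 gave 0.694 for 78 w to 3 d, 1.43 and 1.10 for the injured ratios. With alternatives chosen after seeing the data, adding cluster 4 gave 0.531, 0.711, 1.40 and 1.10, and leaving out the proliferating cluster 10 gave 0.502 for 3 w to 3 d and 0.681 for 78 w to 3 d. The -ps symbols moved no ratio beyond counting error.

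Counts of members at least 1.5-fold lower stayed within 34 to 38 for 78 w to 3 d (36 of 85 as reported, beside 32.8% of genes). For injured to 16 w they stayed within 11 to 15 (13 of 84, beside 32.7% of genes, a share in which depth enters). With size factors the members at least 1.5-fold higher after injury went from 19 to 27 against 16 w and from 33 to 44 against 3 w. Shares of all genes were not counted under these alternatives, so the ranges are no result about the members. The number that differed in EC-like cells was 8 without TMM and 12 to 43 with 1 library left out. Only the 43, from the fit without the 3 w library, were a share well above that of all genes. With 1 library left out the number was 33 to 70 in MPh-like and 70 to 80 in MC-like cells. In MPh-like cells it was 33 of 85 without the 78 w library, beside 5822 of 12523 genes, and 36 of 85 without that of 16 w, beside 6118 of 12506. Counted over both directions, these shares lay below those of all genes. In MC-like cells the 70 of 85, without the 78 w library, stood beside 3287 of 12523 genes. Between stages and after injury no paired analysis was possible, because each condition is 1 library and the replicate numbers are only names. The class tests compared classes within libraries, with the library as a block in edgeR and as the pair in the permutation test.

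With 1 library per condition, depth and dissociation cannot be told apart from age or injury in any ratio between libraries. Sex cannot be told apart from age in the ratios to 3 d. In the ratios of the injured library, age cannot be told apart from injury. The same holds there for sex, genotype and tamoxifen, which are uncertain for that library.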
